A study of Mus musculus with 8 samples.

Results

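The 42 genes described here serve the endoplasmic reticulum (ER), where proteins that leave the cell are made. They comprise 11 chaperones and co-chaperones, 4 protein disulfide isomerases, 8 sensors and transcription factors of the unfolded protein response (UPR), 4 genes of ER-associated degradation, 7 genes of the protein channel and its associated TRAP complex, and 8 genes of the COPII vesicle coat and its cargo loading. They were taken by gene symbol from a deposited table of 54532 gene identifiers. The rule that lists them uses no measured value, but the list was drawn up with earlier results of these data known. The symbols match 43 rows, because Ddit3 has a second row of 105 bases that held 0 counts in every library and was not used. All 42 genes passed edgeR's filter on low counts, which left 16440 genes for testing.

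RNA-seq was performed on first molar enamel organs of untreated wt C57BL/6 mouse pups at P5, the secretory stage, and at P12, the maturation stage. Each library was a pool of 5 pups, and there were 4 libraries at each age, numbered 1, 3, 4 and 5 at P5 and 1 to 4 at P12. The study describes pooled enamel organs with the soft tissue of the pulp chambers removed, while the labels describe microdissected molars that were lysed to extract RNA of enamel organ cells. Polyadenylated RNA was captured. The labels do not say whether pools shared litters, so p-values measure the spread between these pools.

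Newly made secretory proteins enter the ER through the Sec61 channel, fold with the help of chaperones such as BiP (Hspa5) and of disulfide isomerases, and leave in COPII vesicles. Proteins that fail to fold are pulled back out and degraded. When unfolded proteins build up, the membrane sensors IRE1 (Ern1), PERK (Eif2ak3) and ATF6 start the UPR, which raises chaperone and degradation genes through Xbp1, ATF6 and ATF4. Secretory ameloblasts export large amounts of enamel matrix proteins such as amelogenin. In the maturation stage ameloblasts turn to removing this matrix and moving ions.

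The ER stress response element (ERSE) and its variant ERSE-II are the sequences through which ATF6 and XBP1 are known to act on chaperone and degradation genes. They are shown here to give which of the 42 genes hold them. Because the elements are known from such genes, a larger share among these genes than among all promoters is background and not a result. Promoter windows from RefSeq (GRCm38.p6, 250 bases before to 50 bases after a gene's start) were found for 36 of the 42 genes, with 38 windows in all. Sec61a1, Manf, Hyou1, Ssr2, Atf6 and Creb3l1 had no window. The ERSE was searched on both strands as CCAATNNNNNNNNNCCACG, ERSE-II as ATTGGNCCACG and the UPR element (UPRE) as TGACGTGG, and no gene held more than 1 of the 3 kinds. The 8 genes with an ERSE are listed with the fixed letters in capitals, each read on the gene's own strand, so that a site starting CGTGG lies in reverse.
Hspa5: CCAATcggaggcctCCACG
Hsp90b1, the site farther from the start: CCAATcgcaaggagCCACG
Hsp90b1, the site nearer to the start: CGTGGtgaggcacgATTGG
Calr: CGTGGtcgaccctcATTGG
Canx: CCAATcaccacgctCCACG
Dnajc3: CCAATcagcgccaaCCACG
Creld2: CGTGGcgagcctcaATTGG
Pdia6: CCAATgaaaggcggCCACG
Syvn1: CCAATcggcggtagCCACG

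These sites began between 44 and 212 bases before the start. The ERSE was in 39 of 32851 mouse promoter windows (0.119%) and in 8 of the 38 windows of these genes (21.1%). By group it was in 6 of 9 chaperones, 1 of 4 disulfide isomerases and 1 of 4 degradation genes, and in 0 of 6 sensors and transcription factors, 0 of 5 channel and TRAP genes and 0 of 8 COPII genes with a window. The only window of the COPII gene Sec24a (chr11:51756785-51757084) lies inside the annotated gene (chr11:51692264-51763634, minus strand). The annotated start of Sec24a was therefore not searched. ERSE-II was in 12 of all windows (0.0365%), among them Herpud1 and Dnajb11. The UPRE was in 222 of all windows (0.676%), and among these genes in the COPII genes Sec23a and Sec24d. A match is a run of letters and not a measured binding site, and a window without one says only that these letters are not in it.

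The following stretches lie before the start and outside annotated exons, with the elements in capitals. Hsp90b1 held 2 ERSEs, and Herpud1 and Syvn1, partners in degradation, changed in opposite directions, as described further on.
Hsp90b1 (chr10:86705510-86705694, minus strand): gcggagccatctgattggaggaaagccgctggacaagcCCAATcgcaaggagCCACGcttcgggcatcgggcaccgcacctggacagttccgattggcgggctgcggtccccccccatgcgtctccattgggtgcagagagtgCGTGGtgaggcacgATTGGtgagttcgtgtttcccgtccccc
Herpud1 (chr8:94386179-94386428, plus strand): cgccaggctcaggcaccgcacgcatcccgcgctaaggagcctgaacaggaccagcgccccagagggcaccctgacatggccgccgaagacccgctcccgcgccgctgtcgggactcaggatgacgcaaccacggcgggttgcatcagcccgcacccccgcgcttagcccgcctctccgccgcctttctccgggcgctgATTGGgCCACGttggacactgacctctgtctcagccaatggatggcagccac
Syvn1 (chr19:6046326-6046575, plus strand): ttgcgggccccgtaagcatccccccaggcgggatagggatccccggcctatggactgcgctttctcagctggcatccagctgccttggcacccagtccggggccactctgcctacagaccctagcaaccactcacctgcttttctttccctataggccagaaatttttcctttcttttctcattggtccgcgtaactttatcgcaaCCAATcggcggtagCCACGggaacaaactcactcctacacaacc

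Total counts per library ran from 16574548 to 20262601 for P5 and from 17588152 to 22013456 for P12, and a count of 3 was worth 0.136 to 0.181 CPM. The 42 genes took 0.647% to 0.708% of all counts at P5 and 0.666% to 0.730% at P12, ranges that overlap. Counts were scaled by edgeR's TMM factors, 0.871 to 0.888 at P5 and 1.08 to 1.18 at P12, and a normalized count is a count divided by the effective library size and multiplied by its mean. The 4 enamel matrix markers of the secretory stage (Amelx, Ambn, Enam, Mmp20) summed to 232000 to 255000 CPM at P5 but 14700 to 35200 at P12, and the 5 maturation markers (Klk4, Amtn, Odam, Slc24a4, Wdr72) to 601 to 2030 and 22100 to 27400 CPM, as the labelled stages have it. P5 library 5 held the highest value of its age for 24 of the 42 genes. The chi-square of counts over its degrees of freedom was 17.1 to 18.5 between it and other P5 libraries, and 4.76 to 5.89 among those. For P12 library 4 it was 31.6 to 74.6, and 8.58 to 18.9 among other P12 libraries. Klk4, Amtn, Odam and Slc24a4 were lowest of their age in P5 library 5, while Wdr72 was not. P5 library 5 and P12 library 4 are left out together in an alternative given beside the counts.

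At P12, 8 of the 42 genes were higher and 22 were lower than at P5 (edgeR quasi-likelihood test, Benjamini-Hochberg adjusted p under 0.05 over all genes tested), and 12 did not pass. Of all genes tested, 28.8% were higher and 28.4% lower, 57.2% together. The libraries of the ages did not overlap for 8 genes that were higher and 22 that were lower, beside 26.0% and 26.6% of all genes, 52.5% together. The median log2 fold change, P12 over P5, was -0.23 over the 42 genes and 0.01 over all genes. Scaling by total count moved the median of all genes to 0.38 and that of the 42 genes to 0.14, with 21 higher and 15 lower, so that these genes stayed below the median of all genes while the split of the calls turned. The shares of all genes then were 54.0% higher and 14.2% lower. Without P5 library 5 and P12 library 4, 9 genes were higher and 22 lower.

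**Figure D1:**
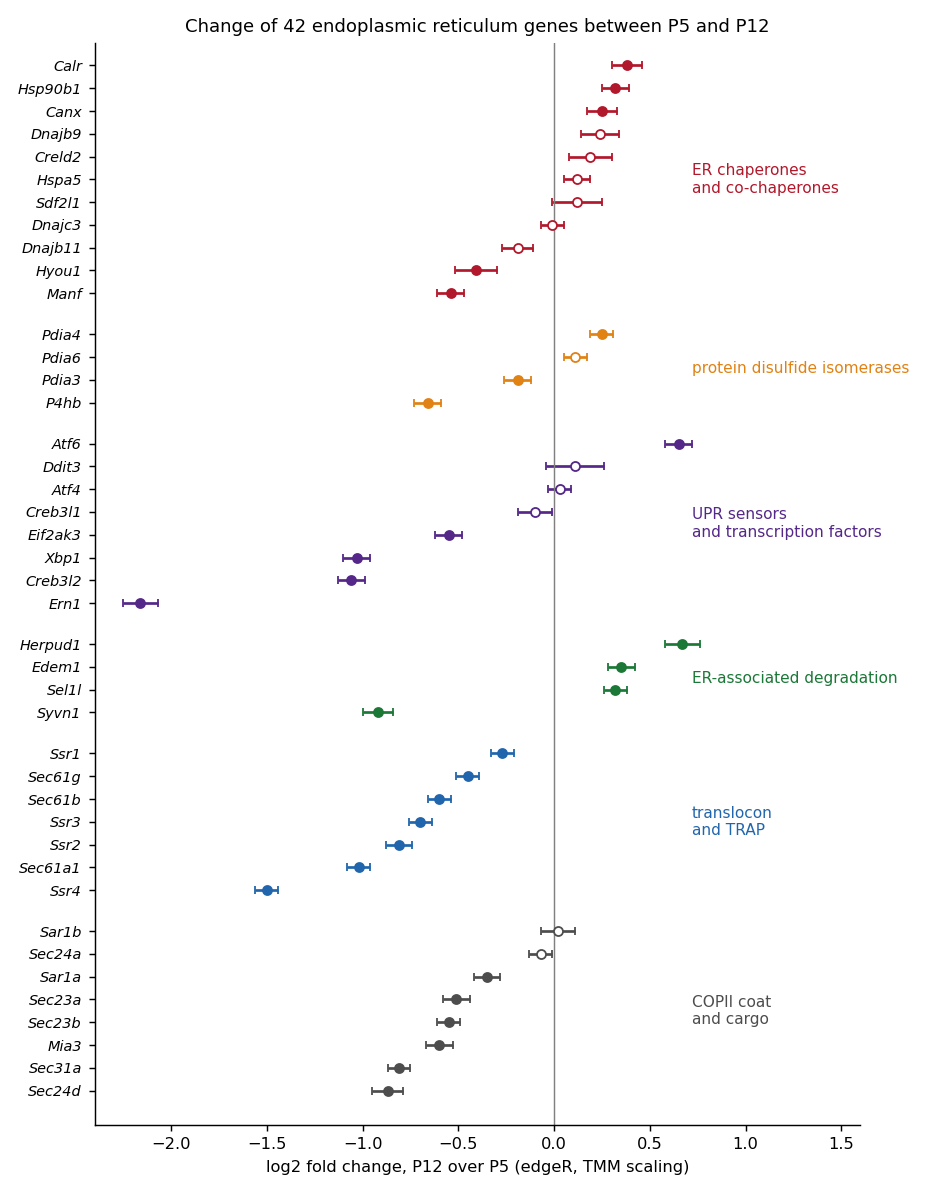
Log2 fold change of each of the 42 genes, P12 over P5, on the x axis with its standard error (edgeR, TMM scaling, 4 libraries per age), grouped by role. Filled points passed an adjusted p of 0.05 and open points did not. All 7 channel and TRAP genes lie left of 0, from -0.27 (Ssr1, which moves to 0.10 under total count scaling) to -1.50 (Ssr4), while the chaperones spread from -0.54 (Manf) to 0.38 (Calr).

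The sensors and transcription factors of the UPR did not move together. Ern1, Eif2ak3, Xbp1 and Creb3l2 were lower at P12, Atf6 was higher, and Atf4, Ddit3 and Creb3l1 did not pass. The group's median log2 fold change was -0.32, and 0.05 under total count scaling, which lies below that scaling's median of all genes.

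Ern1 encodes IRE1, the ER membrane kinase and nuclease that cuts Xbp1 mRNA, and lies at chr11:106394650-106487852 (GRCm38). Taking libraries in the order of their numbers here and below, its normalized counts were 4213, 4466, 4749 and 5627 at P5, then 1004, 1096, 1112 and 1063 at P12. The lowest P5 library was thus far above the highest P12 library. The mean fell from 4764 ± 616 to 1069 ± 47.9 (SD over 4 libraries, as for all means given), and the log2 fold change was -2.16 ± 0.09 (SE, edgeR adjusted p = 1.1e-08), the largest of the 42. Per kilobase of gene length, Ern1 ranked 23 among the 42 genes at P5 and 40 at P12.

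Xbp1, whose spliced product is the transcription factor that acts downstream of IRE1, lies at chr11:5520659-5525893. It had 4544, 4621, 5007 and 5310 normalized counts at P5, and 2571, 2405, 2300 and 2281 at P12. The lowest P5 library stood well above the highest P12 library. The mean went from 4870 ± 356 to 2389 ± 133, a log2 fold change of -1.03 ± 0.07 (edgeR adjusted p = 4.3e-07). Counts per gene do not separate spliced from unspliced Xbp1 mRNA, so they hold no measure of IRE1's activity.

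Creb3l2, a membrane-bound transcription factor related to ATF6 and known for secretory capacity in cartilage, fell by a similar amount. Its values were 4492, 4681, 4562 and 5109 at P5, then 2400, 2174, 2318 and 2122 at P12, with no overlap. The log2 fold change was -1.06 ± 0.07 (edgeR adjusted p = 2.1e-07). Creb3l1, its close relative, had 1964 ± 181 and 1828 ± 197 normalized counts, which did not differ by the test (-0.10 ± 0.09, edgeR adjusted p = 0.35). The log2 ratio of Creb3l1 to Creb3l2 within a library therefore moved, from -1.26 ± 0.10 at P5 to -0.31 ± 0.12 at P12 (exact permutation p = 0.0286, the smallest that 4 against 4 can give, adjusted p = 0.0333 over 7 ratios).

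Atf6 encodes the sensor that is cut in the Golgi to release a transcription factor, and was the only gene of the group that rose under TMM scaling. It had 1010, 967, 979 and 877 normalized counts at P5 and 1394, 1469, 1575 and 1594 at P12, so that the ages did not overlap. The log2 fold change was 0.65 ± 0.07 (edgeR adjusted p = 1.1e-05). Eif2ak3, the PERK kinase that slows translation, fell from 972 ± 56.9 to 666 ± 52.0 (-0.55 ± 0.07, edgeR adjusted p = 8.2e-05), but its fold change was -0.17 with an adjusted p of 0.098 under total count scaling. The 3 membrane sensors thus went in different directions.

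Atf4 and Ddit3 (CHOP) stand downstream of PERK. Atf4 had 2439 ± 86.9 and 2491 ± 157 normalized counts (0.03 ± 0.06, edgeR adjusted p = 0.70). Ddit3 was among the lowest of the 42 genes in counts, with 246, 190, 196 and 219 at P5 and 255, 228, 268 and 167 at P12 (0.11 ± 0.15, edgeR adjusted p = 0.55). Its P12 libraries held both the highest and the lowest value. ATF4 is largely controlled in translation and ATF6, IRE1 and PERK by activation of the protein, none of which was measured.

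**Figure D2:**
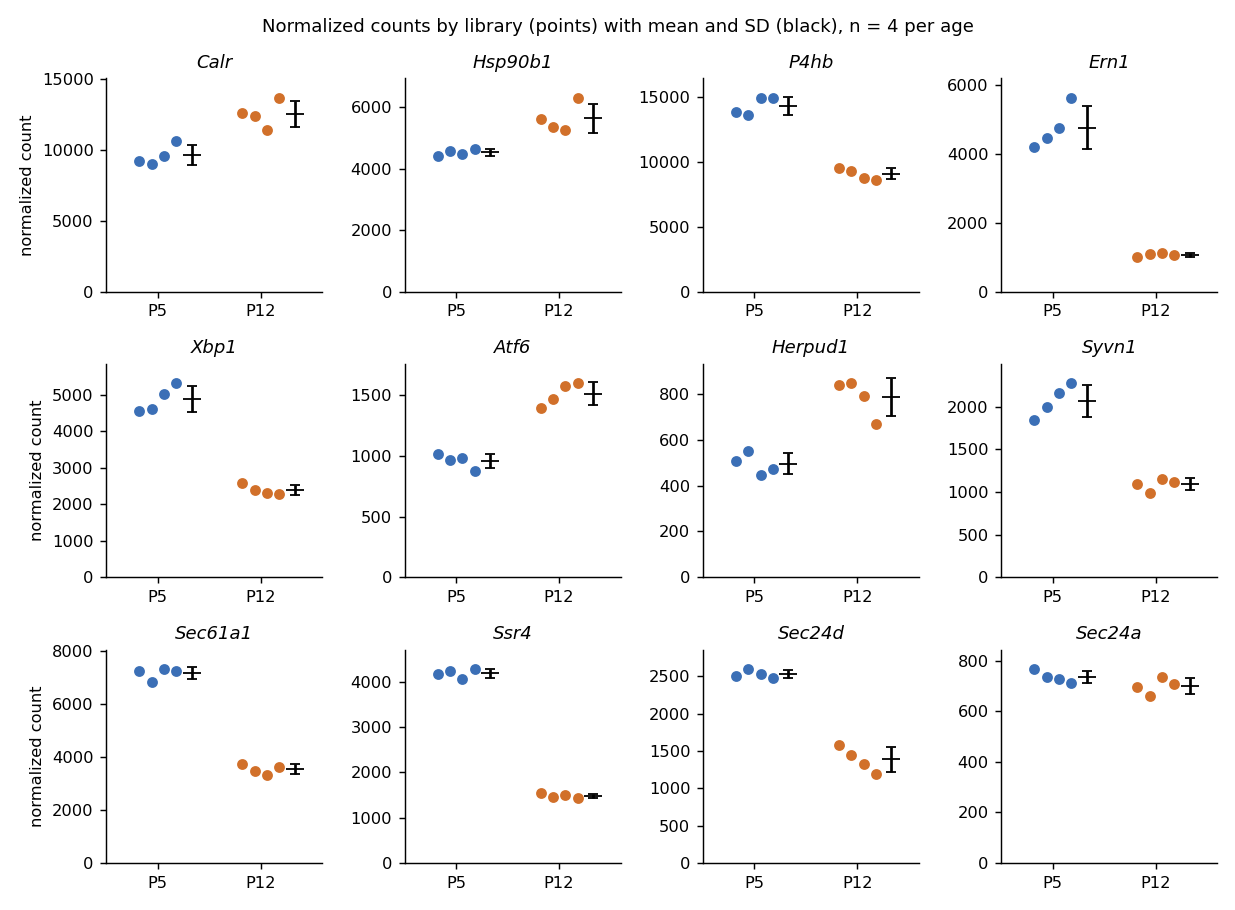
Normalized counts (y axis, from 0) of 12 of the genes in each library, P5 in blue and P12 in orange, with the mean and SD of the 4 libraries in black. Ern1 falls from between 4213 and 5627 to between 1004 and 1112, whereas the values of Sec24a at the ages overlap.

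Among the chaperones, Calr, Hsp90b1 and Canx were higher at P12, Manf and Hyou1 were lower, and 6 of 11 did not pass. Of all genes tested, 28.8% were higher and 28.4% lower. The group's median log2 fold change was 0.12. Under total count scaling it was 0.50, with 9 higher and 1 lower. That scaling moved the median of all genes to 0.38, with 54.0% higher and 14.2% lower.

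Calr, the soluble lectin chaperone calreticulin that also binds calcium in the ER, lies at chr8:84841850-84846934. It had 9242, 9037, 9607 and 10670 normalized counts at P5 and 12586, 12417, 11405 and 13680 at P12. No P12 library reached down to the highest P5 library. The log2 fold change was 0.38 ± 0.08 (edgeR adjusted p = 0.0022). At P12 it had the highest level per kilobase of the 42 genes, 4348 normalized counts per kilobase against 3347 at P5, where it came second to P4hb.

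Hsp90b1 encodes GRP94, the ER member of the HSP90 family. Its values were 4406, 4579, 4483 and 4655 at P5, then 5613, 5362, 5274 and 6309 at P12, without overlap (0.32 ± 0.07, edgeR adjusted p = 0.0025). It shares 15.67% of its exonic bases with 1810014B01Rik on the opposite strand, which had 41 to 83 counts per library. Canx, the membrane-bound partner of calreticulin, rose from 5036 ± 273 to 5994 ± 578 (0.25 ± 0.08, edgeR adjusted p = 0.018). Its call was lost without P5 library 1 (adjusted p = 0.053) or P5 library 3 (0.069), over a range of 1.3e-05 to 0.069 in 18 alternative fits.

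Hspa5, the central Hsp70 chaperone that also keeps the UPR sensors inactive, had 7853, 7858, 8191 and 8673 normalized counts at P5 and 9244, 8105, 8410 and 9563 at P12. The ages overlapped, and the difference did not pass (0.12 ± 0.07, edgeR adjusted p = 0.21). Under total count scaling it did (0.49, adjusted p = 1.2e-04), and in the other 17 fits it did not. The log2 ratio of Hspa5 to Hsp90b1 within a library, which no scaling can change, went from 0.84 ± 0.05 to 0.65 ± 0.06, with no overlap (exact permutation p = 0.0286, adjusted 0.0333). That of Calr to Canx went from 0.93 ± 0.04 to 1.06 ± 0.08 with the same p-values.

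Manf, a small secreted and ER-resident protein induced by ER stress, fell from between 1732 and 2102 to between 1268 and 1400 (-0.54 ± 0.07, edgeR adjusted p = 6.5e-05). Hyou1, the large Hsp70 that exchanges nucleotide on BiP, had 2156, 2378, 2377 and 3184 at P5 and 2070, 1869, 1797 and 1859 at P12 (-0.41 ± 0.11, edgeR adjusted p = 0.0073). P5 library 5 stood above the others, and leaving 1 library out gave between -0.48 and -0.28. Under total count scaling its fold change was -0.04 with an adjusted p of 0.79.

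The J-domain partners of BiP did not pass. Dnajb9 (ERdj4) had 953 ± 98.9 and 1121 ± 137 (0.24 ± 0.10, edgeR adjusted p = 0.061) and passed in 5 of 18 alternative fits. Dnajb11 (ERdj3) had 1938 ± 165 and 1704 ± 129 (-0.19 ± 0.08, edgeR adjusted p = 0.058), and Dnajc3 (p58IPK) had 2277 ± 43.4 and 2266 ± 139 (-0.01 ± 0.06, edgeR adjusted p = 0.92). Sdf2l1, which works with Dnajb11, was at 199 ± 35.6 and 217 ± 15.0, and Creld2, an ER stress-inducible protein, at 438 ± 29.1 and 499 ± 73.0 (edgeR adjusted p = 0.44 and 0.15). Without P12 library 4, Dnajb11 was called lower (-0.24, adjusted p = 0.012) and Creld2 higher (0.26, adjusted p = 0.025).

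The 4 disulfide isomerases, which form and shuffle the disulfide bonds of secreted proteins, went in both directions, with a median log2 fold change of -0.04. Under total count scaling the median was 0.34, below that scaling's median of all genes, 0.38. It called 3 of the 4 higher and 1 lower, beside 54.0% and 14.2% of all genes. P4hb, which is also the beta subunit of the collagen prolyl hydroxylase, lies at chr11:120560298-120573253. It had the highest level per kilobase of the 42 genes at P5, 5007, and 3171 at P12. Its normalized counts were 13869, 13588, 14937 and 14908 at P5, then 9540, 9317, 8794 and 8643 at P12, far apart (-0.66 ± 0.07, edgeR adjusted p = 1.3e-05).

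Pdia4 rose from 2518 ± 110 to 2992 ± 159 (0.25 ± 0.06, edgeR adjusted p = 0.0050). Pdia6, also able to bind IRE1, had 3192 ± 110 and 3447 ± 226 (0.11 ± 0.06, edgeR adjusted p = 0.16). Pdia3, the isomerase that works with calreticulin and calnexin on glycoproteins, had 9509 ± 684 and 8363 ± 276 (-0.19 ± 0.07, edgeR adjusted p = 0.043). This call did not hold: 9 of 18 alternative fits lost it and total count scaling turned it (0.19, adjusted p = 0.041), over a range of adjusted p from 0.015 to 0.20. The log2 ratio of Pdia4 to Pdia6 went from -0.34 ± 0.06 to -0.20 ± 0.05 without overlap (exact permutation p = 0.0286, adjusted 0.0333).

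All 4 genes of ER-associated degradation passed, 3 higher and 1 lower, with a median log2 fold change of 0.33. The shares of all genes were 28.8% higher and 28.4% lower, 57.2% together. Total count scaling also gave 3 higher and 1 lower, with a median of 0.71 beside 0.38 for all genes. It called 54.0% of all genes higher and 14.2% lower. Herpud1, a UPR-induced membrane protein that gathers the degradation complex, had 507, 552, 447 and 472 normalized counts at P5 and 839, 845, 790 and 666 at P12. The lowest P12 library was above the highest P5 library, and the log2 fold change, 0.67 ± 0.09 (edgeR adjusted p = 1.1e-04), was with that of Atf6 at the top of the 42. Sel1l, the adaptor of the ubiquitin ligase, rose from 1873 ± 39.5 to 2336 ± 179 (0.32 ± 0.06, edgeR adjusted p = 0.0014). Edem1, which picks out glycoproteins for degradation, rose from 1305 ± 100 to 1664 ± 110 (0.35 ± 0.07, edgeR adjusted p = 0.0017).

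Syvn1 encodes HRD1, the ubiquitin ligase itself, for which Sel1l is the adaptor. Its values were 1842, 1993, 2164 and 2272 at P5, then 1095, 990, 1157 and 1120 at P12 (-0.92 ± 0.08, edgeR adjusted p = 2.0e-06). It shares 1.87% of its exonic bases with Mrpl49 on the opposite strand, which had 416 to 590 counts. The ligase and its adaptor thus moved in opposite directions, and each kept its direction and call in all 18 alternative fits. Among the genes with an ERSE in their window, Syvn1 was the only one called lower. Hsp90b1, Calr and Canx were called higher, and Hspa5, Dnajc3, Creld2 and Pdia6 were not called. Of all genes tested, 28.8% were higher and 28.4% lower. Manf and Hyou1, the chaperones called lower, had no window and so could not be counted here. Whether the element goes with the direction of change was not tested.

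The 7 genes of the channel and the TRAP complex were all lower at P12, with a median log2 fold change of -0.70. Among all genes 28.4% were lower, and the median was 0.01. Under total count scaling 5 were lower with a median of -0.33, Sec61g (-0.08) did not pass, and Ssr1 turned to 0.10 (edgeR adjusted p = 0.22). That scaling called 14.2% of all genes lower and gave them a median of 0.38. Ssr4, the TRAP delta subunit, lies at chrX:73787028-73790830. It had 4179, 4240, 4065 and 4286 normalized counts at P5 and 1534, 1457, 1510 and 1435 at P12, so that the libraries of each age lay close together and the ages far apart (-1.50 ± 0.06, edgeR adjusted p = 4.2e-09).

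Sec61a1, the channel's pore-forming subunit, lies at chr6:88503579-88518905. Its values were 7258, 6829, 7323 and 7256 at P5, then 3752, 3470, 3302 and 3617 at P12 (-1.02 ± 0.06, edgeR adjusted p = 1.9e-07). The small subunits Sec61b and Sec61g fell from 1401 ± 83.6 to 923 ± 42.8 (-0.60 ± 0.06, edgeR adjusted p = 1.3e-05) and from 1088 ± 69.5 to 794 ± 15.4 (-0.45 ± 0.06, edgeR adjusted p = 9.5e-05). These 3 subunits stand in equal numbers in the protein complex, and their fold changes were not compared with each other by a test.

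The other TRAP subunits, which help some signal sequences open the channel, also fell. Ssr2 (beta) went from 4230 ± 228 to 2404 ± 152 (-0.81 ± 0.07, edgeR adjusted p = 1.8e-06) and Ssr3 (gamma) from 6813 ± 128 to 4191 ± 47.4 (-0.70 ± 0.06, edgeR adjusted p = 1.2e-06). Ssr1 (alpha) fell least, from 3860 ± 138 to 3190 ± 128 (-0.27 ± 0.06, edgeR adjusted p = 0.0020).

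**Figure D3:**
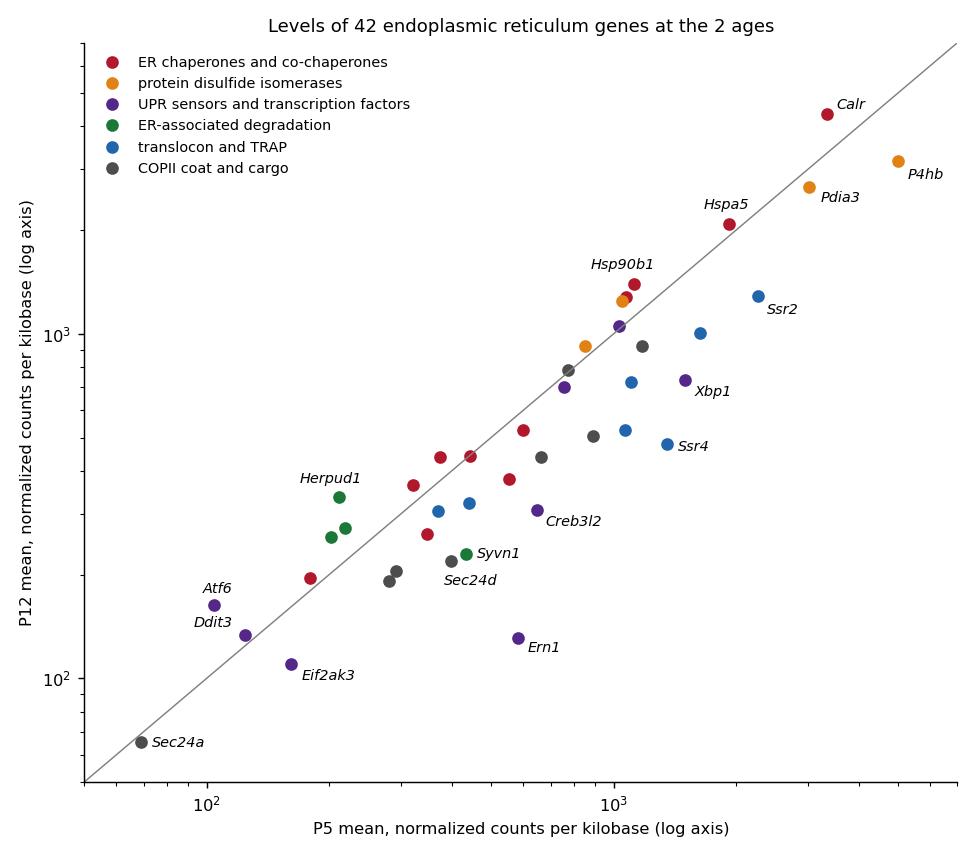
Mean level of each of the 42 genes at P5 (x axis) and P12 (y axis), in normalized counts per kilobase of gene length on log axes, coloured by role, n = 4 libraries per age. The grey line marks equal levels under TMM scaling. Calr and P4hb are highest at both ages, channel and TRAP genes lie below the line, and Ern1 lies farthest below it.

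In the COPII coat, which buds vesicles from the ER, 6 of 8 genes were lower and 2 did not pass, with a median log2 fold change of -0.53. Among all genes 28.4% were lower, and the median was 0.01. The median of the COPII genes was -0.16 under total count scaling, with 4 lower and 2 higher. That scaling called 14.2% of all genes lower and 54.0% higher, with a median of 0.38. Sec31a, the outer coat, fell from 7000 ± 198 to 3979 ± 208 (-0.81 ± 0.06, edgeR adjusted p = 9.5e-07). Mia3 (TANGO1), which loads large cargo such as collagen, fell from 2935 ± 155 to 1940 ± 118 (-0.60 ± 0.07, edgeR adjusted p = 1.5e-05).

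The cargo-binding Sec24 paralogs parted. Sec24d had 2499, 2597, 2532 and 2473 normalized counts at P5 and 1577, 1442, 1328 and 1192 at P12, without overlap (-0.87 ± 0.08, edgeR adjusted p = 4.4e-06). Sec24a, the lowest of the 42 genes per kilobase at both ages, had 736 ± 23.8 and 699 ± 30.3 (-0.07 ± 0.06, edgeR adjusted p = 0.33). The log2 ratio of Sec24a to Sec24d rose from -1.78 ± 0.05 to -0.98 ± 0.21 (exact permutation p = 0.0286, adjusted 0.0333).

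The GTPase that starts the coat is encoded by Sar1a and Sar1b. Sar1a fell from 4390 ± 287 to 3450 ± 112 (-0.35 ± 0.07, edgeR adjusted p = 8.1e-04) but was at 0.03 (adjusted p = 0.74) under total count scaling, and Sar1b had 970 ± 87.1 and 983 ± 95.0 (0.02 ± 0.09, edgeR adjusted p = 0.87). Their log2 ratio fell from 2.18 ± 0.09 to 1.82 ± 0.16 (exact permutation p = 0.0286, adjusted 0.0333), so the share of Sar1a within the pair was smaller at P12 under any scaling.

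The Sec23 paralogs, which trigger the GTPase, fell side by side. Sec23a went from 1415 ± 108 to 991 ± 59.5 (-0.51 ± 0.07, edgeR adjusted p = 9.8e-05) and Sec23b from 1772 ± 58.9 to 1210 ± 83.2 (-0.55 ± 0.06, edgeR adjusted p = 2.3e-05), although Sec23a did not pass under total count scaling (-0.14, adjusted p = 0.15). The log2 ratio of Sec23a to Sec23b was -0.33 ± 0.10 at P5 and -0.29 ± 0.16 at P12, and the difference of 0.04 was within the spread (exact permutation p = 0.657, adjusted 0.657). Leaving out 1 library at a time gave differences between -0.03 and 0.10.

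**Figure D4:**
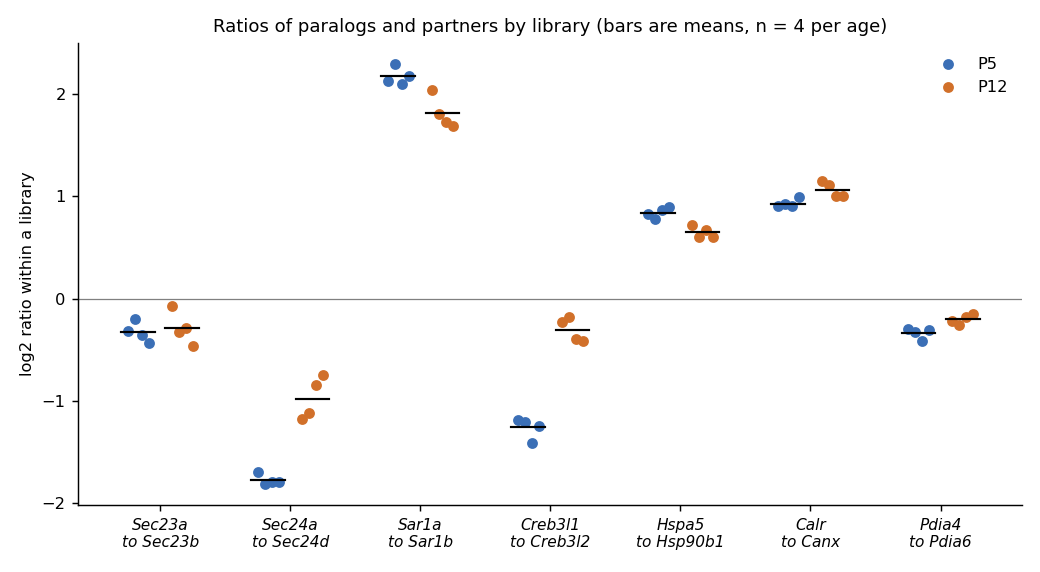
Log2 ratio of 7 pairs of paralogs or partners within each library (y axis), P5 in blue and P12 in orange, with the mean of 4 libraries as a bar. The ages do not overlap for 6 pairs, and the Sec23a to Sec23b ratio overlaps. Among all single genes tested 52.5% did not overlap, and ratios of other gene pairs were not examined.

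Sums over the groups, which also need no scaling, showed how the make-up of the ER genes differed between the ages. The chaperones together had 1.25, 1.29, 1.31 and 1.38 times the counts of the channel and TRAP genes at P5, and 2.46, 2.43, 2.45 and 2.84 times at P12. With TMM the chaperone sum was 35900 to 40700 normalized counts at P5 and 39600 to 45900 at P12, ranges that overlap. That of the channel and TRAP genes was 27900 to 29500 and 16200 to 17200. The ratio of chaperones to COPII genes was 1.73 ± 0.114 and 2.87 ± 0.131, and that of disulfide isomerases to channel and TRAP genes 1.03 ± 0.0357 and 1.44 ± 0.0215. The COPII genes stood to the channel and TRAP genes at 0.757 ± 0.0199 and 0.886 ± 0.0283. In each ratio the lowest P12 library exceeded the highest P5 library, and the ratios are given as descriptions with no test.

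The libraries are bulk samples, in which fewer cells of a type and less RNA per cell cannot be told apart, and other secretory cells also use these genes. Of the 8 osteoblast and odontoblast markers 3 were higher and 2 lower at P12, and their sum was 1030000 to 1230000 normalized counts at P5 and 887000 to 1090000 at P12. In CPM, which scales by the total count and is used for the other sums here, it was 47300 to 57200 and 50200 to 67800, so the direction of this sum turned with the scaling, and in each the ranges overlapped. The sums of the other marker lists had the same direction on both scales. Of 5 plasma cell markers tested 3 were higher and 1 lower, with sums of 297 to 370 and 803 to 1040 CPM, most of it Sdc1, which epithelium also expresses, while Jchain, a defining marker, had 3 counts or fewer in every library. All 5 oral mucosa markers were higher, with sums of 20.7 to 39.9 and 230 to 2000 CPM, as were all 4 endothelial markers (106 to 134 and 270 to 290) and 3 of 4 macrophage markers (30.5 to 41.9 and 56.5 to 82.4). All 4 skeletal muscle markers tested were lower (24.6 to 44.8 and 14.6 to 19.0), and 9 of 11 heat shock and immediate early genes were higher (971 to 982 and 1710 to 1830). The part of these cells and of tissue handling in the changes of the ER genes was not tested.

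Other genes of the same pathway were taken from lists of 141 genes, of which 140 were tested, 22 were higher and 74 lower, with a median log2 fold change of -0.25. Among all genes 28.8% were higher and 28.4% lower, with a median of 0.01. Under total count scaling 62 pathway genes were higher and 37 lower, with a median of 0.12. That scaling called 54.0% of all genes higher and 14.2% lower, with a median of 0.38, so the pathway median stayed below it. In the steps next to the channel, 0 of 18 genes of signal recognition and signal peptidase were higher and 10 lower, the largest fall being that of Sec61a2, a second channel gene (731 ± 59.5 and 429 ± 20.2, -0.77, edgeR adjusted p = 6.7e-06). Of the 12 genes of the oligosaccharyltransferase, which adds sugar chains at the channel, 0 were higher and 10 lower, led by Ostc (2991 ± 58.2 and 1566 ± 107, -0.93, edgeR adjusted p = 3.2e-07). Under total count scaling the medians of these lists, -0.29 and -0.39 with TMM, were 0.09 and -0.02.

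The other 23 genes of COPII and of ER to Golgi carriers had 0 higher and 20 lower, with a median of -0.51 (-0.13 under total count scaling). Sec16b, a scaffold of ER exit sites, fell most, from 1160 ± 68.9 to 291 ± 31.8 (-1.99, edgeR adjusted p = 1.3e-08). Of 13 other oxidoreductases 3 were higher and 7 lower (7 and 2 under total count scaling), from Ero1lb, an oxidase that recharges disulfide isomerases (117 ± 13.7 and 333 ± 110, 1.50, edgeR adjusted p = 8.9e-05), to Prdx4, the ER peroxiredoxin (912 ± 84.1 and 479 ± 56.5, -0.93, edgeR adjusted p = 9.7e-06). In glycoprotein quality control 1 of 10 was higher, the BiP exchange factor Sil1 (0.46, edgeR adjusted p = 3.0e-04), and 3 were lower, most of all the glucosidase Mogs (-0.72, edgeR adjusted p = 5.4e-05). With total count scaling 6 were higher and 1 lower. Beside these lists stand 28.8% of all genes higher and 28.4% lower with TMM, and 54.0% and 14.2% under total count scaling. The 7 and 2 of 13 oxidoreductases under that scaling were near its shares of all genes.

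Of 14 other degradation genes 3 were higher and 5 lower (11 and 1 under total count scaling), from the ubiquitin-conjugating enzyme Ube2j1 (0.21, edgeR adjusted p = 0.035) to Selenos, which helps to recruit the p97 ATPase (-0.79, edgeR adjusted p = 1.2e-06). Among 11 other UPR regulators tested 3 were higher and 3 lower, and under total count scaling 8 and 2. For both lists the shares of all genes were 28.8% higher and 28.4% lower with TMM. Under total count scaling they were 54.0% and 14.2%. Wfs1, an ER membrane protein that restrains ATF6, went from 421 ± 28.6 to 796 ± 41.4 (0.92, edgeR adjusted p = 1.2e-06), and Mbtps1, the Golgi protease that makes the first cut in ATF6, from 4903 ± 260 to 2940 ± 84.9 (-0.74, edgeR adjusted p = 1.8e-06).

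Of 17 genes that ATF4 and CHOP are known to induce, 8 were higher and 4 lower, with a median of 0.30. Of all genes tested, 28.8% were higher and 28.4% lower. Under total count scaling 12 of the 17 were higher and 3 lower, with a median of 0.68, beside 54.0% and 14.2% of all genes. Stc2, a secreted glycoprotein, went from 65.9 ± 16.6 to 629 ± 102 (3.25, edgeR adjusted p = 6.2e-08), and Chac1, an enzyme that breaks down glutathione, from 548 ± 43.5 to 124 ± 15.5 (-2.14, edgeR adjusted p = 3.6e-08). The list's members therefore did not share a direction. Atf4 and Ddit3 themselves did not pass with TMM, and both were called higher under total count scaling.

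**Figure D5:**
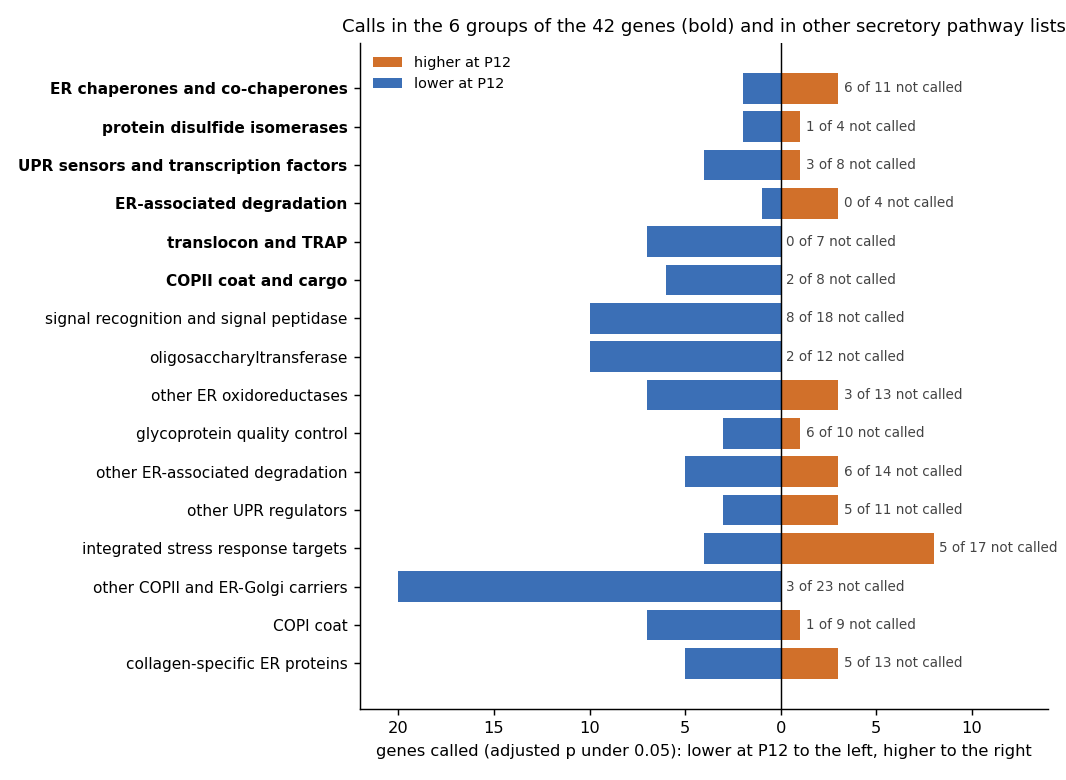
Number of genes called higher at P12 (orange, to the right) and lower (blue, to the left) in the 6 groups of the 42 genes (bold) and in 10 other lists of the secretory pathway (edgeR, TMM scaling). The channel and TRAP list has 0 genes to the right. So have, with TMM, the lists of signal recognition, oligosaccharyltransferase, COPII coat and other COPII genes, of which 6 of 18, 2 of 12, 2 of 8 and 3 of 23 genes were higher under total count scaling. Among all genes 28.8% were higher and 28.4% lower with TMM, and 54.0% and 14.2% under total count scaling.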

How the data were processed

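RNA was taken from first molar enamel organs at P5 and P12 (4 libraries per age, each of 5 pooled pups). The authors deposited whole-number read counts per gene without normalization, with gene names, coordinates and lengths. The submitters' processing notes name CASAVA and the assembly mm39, whereas 53462 of the 54532 identifiers have the coordinates of GENCODE M21 (GRCm38), among them all 42 genes described, and coordinates are given in GRCm38. The aligner, the counting program and its use of strand are not given in the sources used here, so reads of overlapping genes on opposite strands may not be separated. Of the 42 genes, 7 share at least 5% of their exonic bases with another annotated gene.

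All genes that passed filterByExpr were fitted with edgeR 4.0.16 in R 4.3.3 (TMM scaling, glmQLFit and glmQLFTest without covariates), and p-values were adjusted by Benjamini-Hochberg over 16440 genes and a threshold of 0.05. The standard error is the log2 fold change divided by the square root of F. The study's methods name DESeq2, which was run as an alternative (1.42.0), with limma-voom (limma 3.58.1), DESeq2 size factors, total count scaling, scaling without the 20 most abundant genes, no filter, a minimum of 10 counts in each library, libraries left out singly, P5 library 5 and P12 library 4 both left out, and the replicate number as a block. Fold changes per gene were recomputed in these 18 fits, and counts of calls also at an adjusted p under 0.01 and for changes of 1 log2 unit or more.

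Ratios within a library were tested by exact permutation (two-sided, 70 splits), on log2 normalized counts plus 1, adjusted over 7 ratios. Levels are compared between genes per kilobase of the deposited gene length. Every one of the 42 genes is named. Of each other pathway list the gene with the largest rise and that with the largest fall are named, among those past the threshold with a mean normalized count of at least 100. The 42 genes, the lists, the libraries left out together and the tests were chosen with earlier results of these data known. Promoter sequences are those of RefSeq, and protein sequences were not used here. Counts of the 12 same-age library pairs differed by more than sampling noise (chi-square over its degrees of freedom 4.76 to 74.6). The fits were tested on simulated counts. Floors cover counting error only, since reads carry no molecular identifiers. Summaries used Python 3.11.15 with numpy 2.4.6, pandas 2.3.3 and scipy 1.17.1, and plots matplotlib 3.10.9.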

Additional observations from a re-analysis of the deposited data

Results flagged for a closer look

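Among the 84 sets of 4 libraries (42 genes at 2 ages), 5 had a library far from the other 3 by Dixon's test at the 95% level, where chance alone gives about 4.2. Canx in P12 library 4 had 6859 normalized counts, with the others between 5669 and 5734. Dnajb11 in P5 library 5 had 2185, with the others between 1849 and 1865, and Creld2 in the same library had 482, with the others between 420 and 426. In P5 library 3 Sec61a1 had 6829 (others 7256 to 7323) and Sec23a had 1576 (others 1345 to 1381).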

How the results depend on the processing

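Of the 30 called genes, 22 kept direction and call in all 18 alternative fits. DESeq2 called 8 of the 42 genes higher and 22 lower, and 4724 and 4673 of all genes. Total count scaling called 8885 genes higher and 2330 lower, with 21 of the 42 genes and 62 pathway genes higher and 37 pathway genes lower. Its fold changes turned sign for Dnajb11 (0.18), Dnajc3 (0.36), Pdia3 (0.19), Creb3l1 (0.27), Ssr1 (0.10), Sec24a (0.30) and Sar1a (0.03), and all genes were shifted with them. Requiring a log2 fold change of at least 1 left 1864 genes higher and 1677 lower, 0 and 5 of the 42 genes, and 6 and 7 pathway genes. Those 5 were Ern1, Ssr4, Creb3l2, Xbp1 and Sec61a1.

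With 1 library left out at a time there were 4309 to 4938 genes higher and 4364 to 5092 lower, 7 to 9 and 21 to 23 of the 42 genes, and 18 to 22 and 68 to 78 pathway genes. The sign of small fold changes turned for Dnajc3 without P12 library 1 (0.00) or 2 (0.02), within a range of -0.05 to 0.02, and with no filter (0.01), and for Sar1b without P5 library 3 (-0.02), P5 library 5 (-0.03) or P12 library 4 (-0.03), within a range of -0.03 to 0.08. With P5 library 5 and P12 library 4 both left out, Creb3l1 stood at 0.00 and Sar1b at -0.07, and 18 pathway genes were higher and 82 lower. The ratio differences moved little: without 1 library they were 0.72 to 0.87 for Sec24a to Sec24d and 0.91 to 0.99 for Creb3l1 to Creb3l2. Where Dnajb9 passed, its fold change was between 0.25 and 0.60. The cause of these changes was not tested.

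Numbers 1, 3 and 4 occur at both ages, but deviations of same-numbered libraries did not correlate (r of 0.04, 0.01 and -0.04). No sign was thus seen that the numbers pair the libraries, though a small shared effect could be missed this way. The replicate block over these 6 libraries called 3867 genes higher and 3843 lower, and 8 and 21 of the 42 genes, against 4076 and 4041, and 8 and 21, in the same 6 without the block. Sign turned with the block for Dnajc3 (0.02), Atf4 (-0.02) and Sar1b (-0.04), and without it at 0.03, -0.02 and -0.04. Pdia3 was not called with the block (adjusted p = 0.20 by edgeR) or without it (0.13). Ddit3 and Sdf2l1, the genes with the lowest counts of the 42, had the largest standard errors, 0.15 and 0.13. The part of counting error in them was not tested.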

Other observations

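The COPI coat, which carries proteins back from the Golgi to the ER, had 1 of 9 genes higher at P12 and 7 lower, with a median log2 fold change of -0.67 (-0.29 under total count scaling, with 1 higher and 6 lower). Among all genes 28.8% were higher and 28.4% lower with TMM, and 54.0% and 14.2% under total count scaling. The paralogs of its gamma subunit parted, as Copg2 was the gene that rose, from 944 ± 36.3 to 1180 ± 110 (0.32, edgeR adjusted p = 0.0032). Copz2, a zeta subunit, fell most, from 2597 ± 193 to 1308 ± 83.0 (-0.99, edgeR adjusted p = 5.9e-07).

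Of 13 ER proteins that serve collagen, 3 were higher and 5 lower, with a median of -0.17 (0.20 under total count scaling, with 6 higher and 5 lower). The shares of all genes were 28.8% and 28.4% with TMM, and 54.0% and 14.2% under total count scaling. Plod2, a lysyl hydroxylase of collagen, fell from 7293 ± 769 to 2867 ± 261 (-1.35, edgeR adjusted p = 4.0e-07). P4ha3, an alpha subunit of the prolyl hydroxylase whose beta subunit is P4hb, went from 28.0 ± 7.40 to 310 ± 79.9 (3.48, edgeR adjusted p = 4.3e-07). In the same libraries Col1a1, a collagen gene of the osteoblast and odontoblast markers, had 620261 ± 60095 and 488824 ± 49214 normalized counts (-0.34, edgeR adjusted p = 0.056). Col1a2, the other collagen gene of that list, had 357161 ± 21578 and 278602 ± 33217 and was called lower without overlap (-0.36, edgeR adjusted p = 0.033).

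The 42 genes varied less between libraries of an age than genes at large, with a median coefficient of variation of 5.91% at P5 and 6.27% at P12 beside 10.8% and 11.9% over all genes tested, which include many genes of lower counts.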
